A study of Mus musculus with 51 samples.

Results

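*Olfr506*, *Olfr20* and *Olfr30* are 3 of the 1117 olfactory receptor (OR) genes in the count tables. They were found by gene symbol, and they were chosen by their fold changes and p-values after exposure to undiluted (100%) SBT. By p-value among the 1050 ORs tested against the diluent controls of 100% SBT, *Olfr506* had rank 1, *Olfr30* rank 3 and *Olfr20* rank 5. Their values at 100% SBT are therefore given as a description with no test. Tests were kept for the other 9 odor exposures, of which 1% SBT shares its control mice with the contrast that chose the genes.

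Odorant receptors are G protein-coupled receptors on the cilia of olfactory sensory neurons (OSNs). Each mature OSN expresses a single OR gene, so the amount of an OR transcript in the tissue stands for the neurons that chose that receptor. When an OSN is activated, ribosomal protein S6 in that cell becomes phosphorylated (pS6). In pS6-IP-Seq, ribosomes carrying pS6 are captured with an antibody and the RNA bound to them is sequenced, so that transcripts of the receptors whose neurons were active make up more of the library. In whole mucosa, more active neurons of a type and more captured RNA per neuron cannot be told apart.

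Littermate C57BL/6J mice of mixed sex and about 3 weeks of age were exposed for 1 hr to 10 µL of odorant or of diluent, and the whole olfactory mucosa of each was immunoprecipitated. The 51 libraries comprise 30 from 10 odor groups and 21 from 7 control groups, with 3 libraries in each group. SBT (2-*sec*-butyl-4,5-dihydrothiazole), a volatile of mature male mouse urine, was given at 0.01% and 1% in water and undiluted at 100%. The 0.01% dose had 3 control libraries of its own, and the 1% and 100% doses shared 3 others. The remaining groups received 100 µM or 10 mM (methylthio)methanethiol (MTMT) in ethanol, 100% farnesene, 1% 2,5-dimethylpyrazine (2,5-DMP) in water, 77% dehydro-*exo*-brevicomin (DHB) in water, 100 mM cyclopentadecanone (CPD) in ethanol, or 1% β-caryophyllene in water. Farnesene, 2,5-DMP and 100 µM MTMT were set against the same 3 control libraries, whose diluent is not stated in the labels. As 2,5-DMP was in water and MTMT in ethanol, no single diluent in these controls would match both. Where it did not match, odor and diluent cannot be told apart. No transgene or mutation is named for any group. Libraries held 27301 to 160001 reads on OR genes (median 93870), and the 3 controls of 1% and 100% SBT were the shallowest group, with 27301 to 57154. Genes other than ORs were not analysed here, so the tissue was not checked against its cell type markers.

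The 3 receptors are not close relatives. Their proteins share 43.5% (*Olfr506* and *Olfr20*), 41.6% (*Olfr506* and *Olfr30*) and 40.0% (*Olfr20* and *Olfr30*) of aligned residues, where the median identity with the other ORs was 40.9% for *Olfr506*, 42.4% for *Olfr20* and 39.9% for *Olfr30*. *Olfr506* lies on the plus strand of chromosome 7 (chr7:108610787-108615340, GRCm38), with its coding part at 108612309-108613250 in 314 codons. *Olfr20* (chr11:73350783-73355951, plus strand, coding part 73353755-73354696, 314 codons) and *Olfr30* (chr11:58454105-58462270, minus strand, coding part 58455003-58455947, 315 codons) both lie on chromosome 11, in separate OR clusters. The nearest OR was *Olfr507* for *Olfr506*, 6.5 kb away, *Olfr376* for *Olfr20*, 15.3 kb away, and *Olfr332* for *Olfr30*, 25.7 kb away.

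A coding stretch of 60 bases around the codons at the place of the DRY motif, which follows the third transmembrane helix and takes part in G protein coupling, shows how far the 3 genes and the OR of highest protein identity to each differ. Capitals mark the 3 codons at the motif's place. The sequences are from the GRCm38.p6 genome, 5′ to 3′ on the coding strand.
Olfr506 (chr7:108612651-108612710, plus strand): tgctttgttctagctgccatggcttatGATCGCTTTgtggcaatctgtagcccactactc
Olfr502 (chr7:108523547-108523606, minus strand): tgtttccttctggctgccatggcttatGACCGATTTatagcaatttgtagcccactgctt
Olfr20 (chr11:73354088-73354147, plus strand): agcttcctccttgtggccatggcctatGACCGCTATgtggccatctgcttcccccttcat
Olfr376 (chr11:73375093-73375152, plus strand): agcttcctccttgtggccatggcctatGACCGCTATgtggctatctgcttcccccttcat
Olfr30 (chr11:58455552-58455611, minus strand): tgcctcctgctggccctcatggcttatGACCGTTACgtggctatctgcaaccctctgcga
Olfr1395 (chr11:49148595-49148654, plus strand): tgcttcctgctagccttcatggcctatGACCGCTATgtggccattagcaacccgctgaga
*Olfr20* and *Olfr376* have 59 of the 60 bases in common here, *Olfr506* and *Olfr502* 49, and *Olfr30* and *Olfr1395* 49. Between the 3 genes themselves, 41 or 42 of the 60 bases are the same.

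How much of each gene a short read can assign bears on every count below. Of the exon stretches of 50 bases, 8.37% in *Olfr506*, 14.1% in *Olfr20* and 2.61% in *Olfr30* also occur in another *Olfr* gene. For *Olfr20*, 7.62% of its stretches occur in *Olfr376*. In addition, 92.7% of its stretches lie in *Gm49340*, an annotated gene on the same strand that overlaps most of *Olfr20* and is not in the count tables, so that reads of *Olfr20* and of *Gm49340* cannot be separated over most of its length.

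At 100% SBT all 3 receptors stood far above their controls. The share of *Olfr506* in all OR reads was 0.801%, 0.587% and 0.801% in the 3 libraries exposed to 100% SBT (654, 613 and 461 reads), and 0.0522%, 0.0175% and 0.0366% in the controls (23, 10 and 10 reads). The share of *Olfr20* was 0.689%, 0.687% and 0.346% (562, 718 and 199 reads), against 0.0295%, 0.0665% and 0.0256% in the controls (13, 38 and 7 reads). The share of *Olfr30* was 1.52%, 1.63% and 1.5% (1240, 1705 and 865 reads), against 0.468%, 0.434% and 0.454% in the controls. No exposed library overlapped a control for any of the 3 genes, and 13.3% of the 1050 ORs tested had all 3 exposed libraries above all 3 controls. The exposed libraries of *Olfr30* differed little among themselves, and replicate 3 was the lowest exposed library for *Olfr20*.

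The mean share of *Olfr506* was 20.6-fold higher at 100% SBT, 0.730% ± 0.124 against 0.0355% ± 0.0174 in the controls (SD, n = 3). For *Olfr20* it was 14.1-fold higher, 0.574% ± 0.197 against 0.0406% ± 0.0225, and for *Olfr30* 3.43-fold higher, 1.55% ± 0.0699 against 0.452% ± 0.0171. After scaling by trimmed mean of M-values (TMM) factors, the log2 fold change was 4.77 (SE 0.41) for *Olfr506*, 4.16 (SE 0.45) for *Olfr20* and 2.17 (SE 0.23) for *Olfr30*. By size of log2 fold change these were ranks 7, 11 and 75 of the 1050 ORs tested, of which 11.4% passed an adjusted p of 0.05, 10.7% of all being higher. Scaling by the library totals instead of TMM moved the median log2 fold change of all tested ORs from -0.07 to -0.47 and the calls from 112 higher and 8 lower to 85 higher and 42 lower. The values of *Olfr506* (4.38), *Olfr20* (3.76) and *Olfr30* (1.78) moved down by about the same shift.

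The fold change depended on which controls were taken, since the controls of 1% and 100% SBT held the lowest mean share of *Olfr20* of all 17 groups and the lowest but 1 of *Olfr506*. Against the mean of the other 18 control libraries, the mean share at 100% SBT was 13.3-fold higher for *Olfr506*, 9.53-fold for *Olfr20* and 3.90-fold for *Olfr30*. Replicates 1 and 2 of the 1% and 100% SBT experiments share a label prefix, and replicate 3 has another. Within replicates 1 and 2 the fold at 100% SBT was 19.9 for *Olfr506*, 14.3 for *Olfr20* and 3.49 for *Olfr30*, and within replicate 3 it was 21.9, 13.5 and 3.31.

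As ratios, the starting levels of the 3 receptors differed more than their levels after exposure. Per kb of exon and per 100000 OR reads, the level in the controls of 1% and 100% SBT was 11 ± 5.39 (SD, n = 3) for *Olfr506*, 16.9 ± 9.42 for *Olfr20* and 187 ± 7.06 for *Olfr30*, ranks 659, 510 and 20 of the 1117 ORs. At 100% SBT the levels per kb were 226 ± 38.4, 240 ± 82.5 and 641 ± 28.9, ranks 23, 21 and 4. Together the 3 genes took 2.65% to 3.01% of OR reads at 100% SBT and 0.327% to 0.751% in the other 48 libraries.

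**Figure D1:**
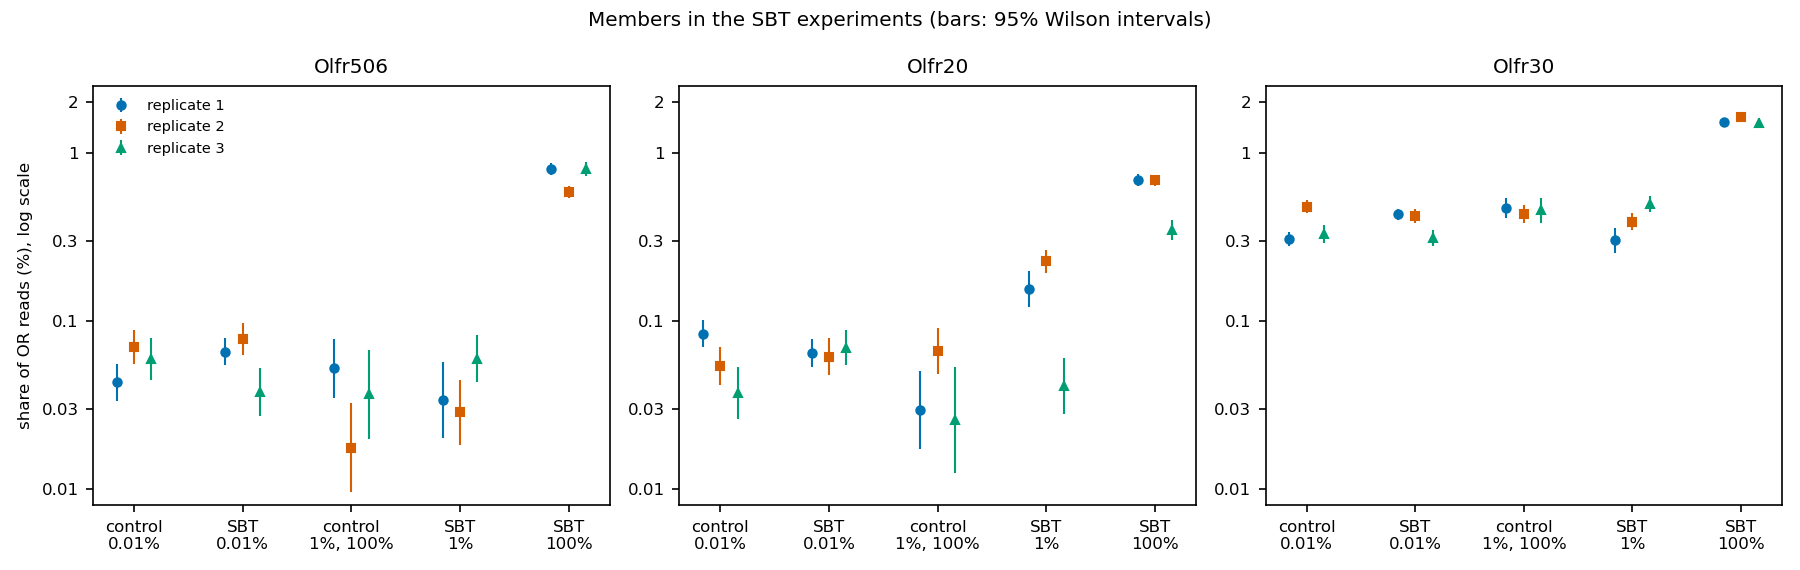
Share of OR reads (%, log scale) of *Olfr506*, *Olfr20* and *Olfr30* in each library of the SBT experiments, by replicate, with 95% Wilson intervals that cover counting error only. At 100% SBT every library lies above the controls for all 3 genes, and at 1% SBT replicates 1 and 2 of *Olfr20*, at 0.154% and 0.226%, lie above the 3 controls while replicate 3, at 0.0408%, lies among them.

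The lower doses of SBT ask whether any of the 3 receptors was enriched below the undiluted dose. At 1% SBT the shares of *Olfr20* were 0.154%, 0.226% and 0.0408% (64, 150 and 26 reads). Replicates 1 and 2 exceeded all 3 controls (highest 0.0665%), and replicate 3 lay within their range. The log2 fold change was 1.86 (SE 0.61), which did not pass by edgeR's quasi-likelihood test (Benjamini-Hochberg adjusted p = 0.488 over 1043 ORs, of which 0.863% passed). It was higher in each of the 3 pairs of equal replicate number, 5.23-fold, 3.40-fold and 1.59-fold, and the exact two-sided permutation p was 0.2 where 0.1 is the smallest that 3 against 3 libraries allow (adjusted p = 0.675 over 27 tests). With the replicate number as a block the value was 1.81 (adjusted p = 0.0995, edgeR). In 1 edgeR fit of all 51 libraries, which shares the spread among groups, it was 1.89 and passed (adjusted p = 0.0068). Of the 1043 ORs, that fit called 23 higher and 5 lower at 1% SBT, where the main fit called 9 higher and 0 lower. All these tests use the controls that also entered the choice of the genes, whose mean share of *Olfr20* was the lowest of all 17 groups (0.0406%). The other 18 control libraries had a mean of 0.0602% and ran from 0.0298% to 0.102%. Replicates 1 and 2 at 1% SBT lay above that range and replicate 3 within it. The change against those other controls was not tested. Over the alternatives tried the log2 fold change ran from 1.47 to 2.43 and the adjusted p from 0.0068 to 0.997. The mean share in replicates 1 and 2 was 3.96-fold that of their controls, and in replicate 3, which has the other label prefix, 1.59-fold. In replicate 1 another receptor, *Olfr545*, took 14.4% of OR reads, and without that library the log2 fold change of *Olfr20* was 1.68 (adjusted p = 0.997, edgeR).

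*Olfr506* and *Olfr30* did not differ detectably from their controls at 1% SBT. The shares of *Olfr506* were 0.0338%, 0.0286% and 0.0596% (14, 19 and 38 reads), within or just above the controls' 0.0175% to 0.0522%, with a log2 fold change of 0.35 (SE 0.65, adjusted p = 0.994, edgeR). The shares of *Olfr30* were 0.302%, 0.390% and 0.499% against 0.434% to 0.468% in the controls, with a log2 fold change of -0.06 (SE 0.35, adjusted p = 0.994, edgeR). The exposed libraries overlapped the controls for *Olfr506* and lay on either side of them for *Olfr30*. With 10 to 38 reads of *Olfr506* per library at this dose and in its controls, a small change would not have been detectable.

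At 0.01% SBT none of the 3 genes differed detectably from its controls, and 0.466% of the 1072 ORs tested passed. *Olfr506* had shares of 0.0656%, 0.0782% and 0.0377% against 0.0430%, 0.0696% and 0.0589% in the controls (log2 fold change 0.11, SE 0.33). *Olfr20* had 0.0644%, 0.0612% and 0.0691% against 0.0838%, 0.0537% and 0.0371% (log2 fold change 0.16, SE 0.33). *Olfr30* had 0.431%, 0.419% and 0.310% against 0.307%, 0.477% and 0.328% (log2 fold change 0.08, SE 0.26). The groups overlapped in every case, and each adjusted p was 0.999 by edgeR's quasi-likelihood test.

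The step from 0.01% to 1% SBT was tested as the difference of the changes, each dose against its own controls. It was 1.69 (SE 0.71, adjusted p = 1.00, edgeR) on the log2 scale for *Olfr20*, 0.26 (SE 0.69) for *Olfr506* and -0.13 (SE 0.44) for *Olfr30*. No OR passed this test (0.0% of 1082 by edgeR's quasi-likelihood test, with 48 at an unadjusted p under 0.05, 1 by DESeq2 and 1 by the likelihood ratio test). The step from 1% to 100% SBT is a description, since the upper dose chose the genes. The mean share was 17.9-fold higher at 100% than at 1% for *Olfr506*, 4.09-fold for *Olfr20* and 3.91-fold for *Olfr30*. The lowest library at 100% was 9.83-fold above the highest at 1% for *Olfr506*, 3.01-fold for *Olfr30* and 1.53-fold for *Olfr20*.

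**Figure D2:**
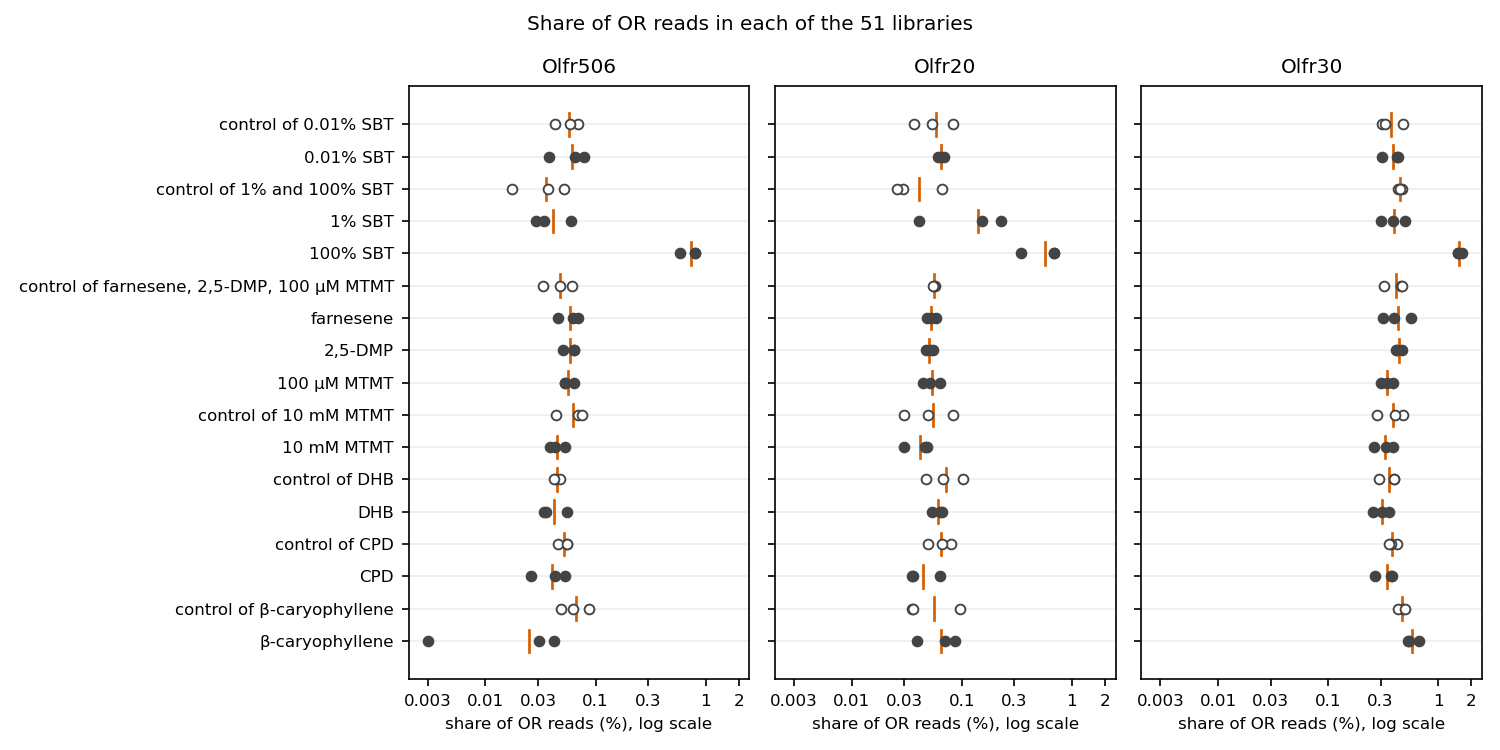
Share of OR reads (%, log scale) of the 3 receptors in all 51 libraries, with filled points for odor libraries, open points for controls and an orange line at the group mean of 3 libraries. The 100% SBT group is the highest for each gene, and the low point of *Olfr506* in β-caryophyllene is a library with 3 reads of that gene.

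Across the other 7 exposures none of the 3 receptors passed the test. Outside 100% SBT the share of *Olfr506* ran from 0.0030% to 0.0877% over 48 libraries (median 0.0491%), that of *Olfr20* from 0.0256% to 0.226% (median 0.0540%) and that of *Olfr30* from 0.256% to 0.670% (median 0.394%). The lowest 100% SBT library was thus 6.69-fold above the highest of the other 48 for *Olfr506*, 1.53-fold for *Olfr20* and 2.24-fold for *Olfr30*, and all 48 lay below it. Among the 17 groups ordered by mean share, 100% SBT came first for each gene and did not overlap with the next, which was a control group at 0.0661% ± 0.0200 for *Olfr506*, 1% SBT at 0.140% ± 0.0934 for *Olfr20* and β-caryophyllene at 0.581% ± 0.0771 (SD, n = 3) for *Olfr30*. Further down the order neighbouring groups overlapped, except that β-caryophyllene lay above its control group for *Olfr30*.

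The fitted log2 fold changes for 100 µM MTMT, 10 mM MTMT, farnesene, 2,5-DMP, DHB and CPD were between -0.43 and 0.35 in all 3 genes. The ORs that passed were 0.281% of those tested for 100 µM MTMT, 0.0% for 10 mM MTMT (69 of 1054 had an unadjusted p under 0.05, and DESeq2 called 15), 1.77% for farnesene, 0.841% for 2,5-DMP, 0.564% for DHB and 0.0% for CPD (40 of 1050 had an unadjusted p under 0.05, and DESeq2 called 1). Farnesene, 2,5-DMP and 100 µM MTMT share their 3 control libraries. In farnesene *Olfr506* had 0.0624%, 0.0694% and 0.0456%, the largest of these increases (log2 fold change 0.35, SE 0.30, adjusted p = 0.992, edgeR), within reach of the controls at 0.0336%, 0.0472% and 0.0608%. In 2,5-DMP *Olfr20* had 0.0511%, 0.0470% and 0.0544%, all just under the controls at 0.0576%, 0.0560% and 0.0551%. Its log2 fold change was -0.17 (SE 0.27, adjusted p = 0.991, edgeR), and 9.07% of ORs had groups that did not overlap in this comparison.

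β-Caryophyllene, a sesquiterpene of plants and of mouse urine, gave the fitted change of *Olfr506* farthest from 0 outside SBT, and none of the 3 receptors passed. *Olfr506* had 0.0304%, 0.0030% and 0.0415% (24, 3 and 40 reads) against 0.0625%, 0.0481% and 0.0877% in the controls (55, 34 and 97 reads). All 3 exposed libraries were below all 3 controls, with a log2 fold change of -1.35 (SE 0.63, adjusted p = 0.904, edgeR). *Olfr30* had 0.529%, 0.545% and 0.670% against 0.478%, 0.433% and 0.496%, all above, with a log2 fold change of 0.39 (SE 0.32, adjusted p = 0.925, edgeR). In this comparison 0.0% of 1048 ORs passed (51 had an unadjusted p under 0.05, and DESeq2 called 0), and 12.3% had groups that did not overlap. Replicate 2 of the exposed group stood apart, with 57 ORs at least 4-fold below and 14 at least 4-fold above the mean of the other libraries of its group. The other exposed libraries had at most 5 and 9, and the control libraries at most 9 and 1. Without replicate 2 of the exposed group the log2 fold change of *Olfr506* was -0.82 (adjusted p = 0.995, edgeR).

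The share of *Olfr30* varied little between control mice, and its counts, being higher, also carry less counting error. Over the 21 control libraries its share had a coefficient of variation of 17%, and 1.38% of the 939 ORs with a mean of at least 10 reads per library varied less. For *Olfr506* the coefficient was 29.9%, and 25.5% of these ORs varied less. For *Olfr20* it was 38.3%, near the median of 37.8% over these ORs, and 51.4% varied less. Per kb of exon *Olfr30* ranked between 18 and 29 of 1117 in the 7 control groups, *Olfr20* between 284 and 510, and *Olfr506* between 384 and 659.

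ORs close in protein sequence or in the genome show how far these responses were shared. Of the 27 ORs that are among the 5 closest relatives of a member or lie within 100 kb of it, 23 had enough reads to be tested at 100% SBT and 5 of them were called higher by edgeR's quasi-likelihood test (21.7%, where 10.7% of all ORs tested were higher). The median log2 fold change of the 23 was 0.05, and that of all ORs was -0.07. All 5 are relatives, 3 of *Olfr20*, 1 of *Olfr506* and 1 of *Olfr30*. None was called lower by that test. *Olfr494*, 81.8% identical to *Olfr506*, had 2, 6 and 4 reads against 19, 29 and 5. All 3 of its shares lay below the controls, as did those of 20.3% of the 1050 ORs tested. Its log2 fold change was -2.51 (SE 0.79, adjusted p = 0.0601, edgeR). It was called lower with DESeq2 (adjusted p = 0.0348), the likelihood ratio test (0.0108), library totals (0.0297), the fit of all 51 libraries (0.0178) and without control replicate 3 (0.0433).

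**Figure D3:**
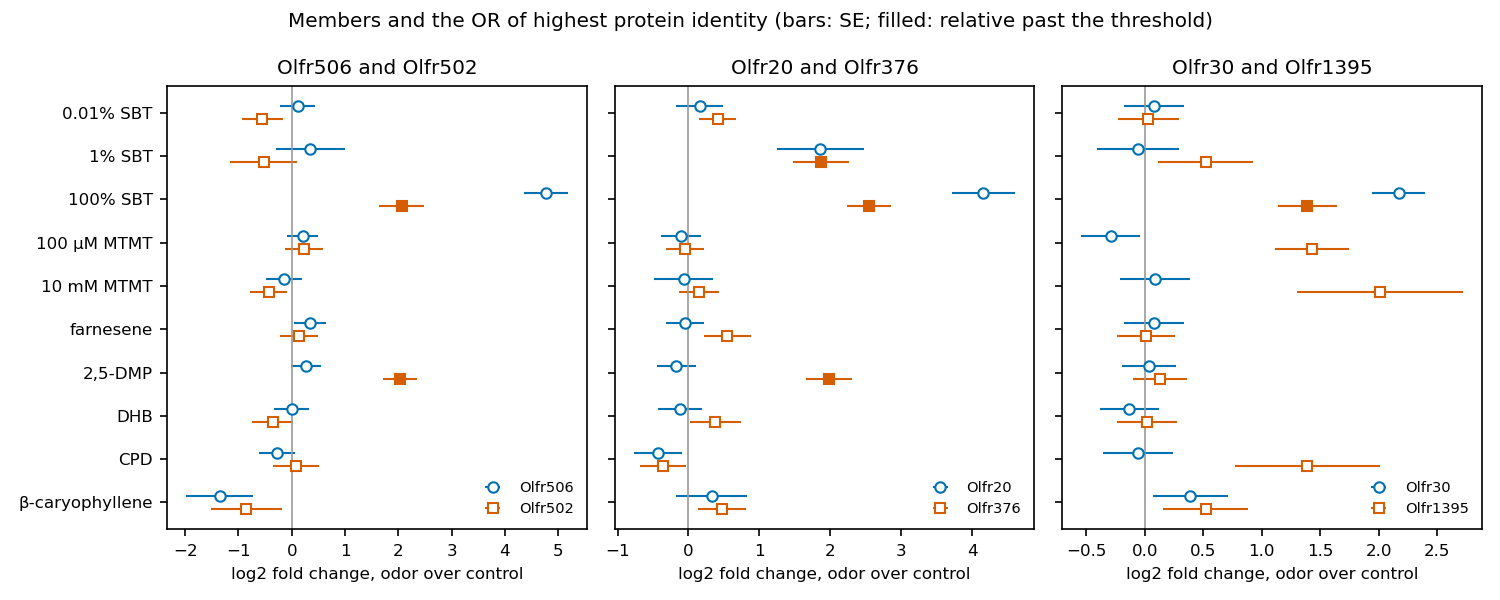
Log2 fold change with SE (n = 3 against 3) of each receptor (blue circles) and of the OR with the highest protein identity to it (orange squares) in the 10 comparisons, with filled squares where the relative passed the test. *Olfr502* and *Olfr376* are filled at 100% SBT and at 2,5-DMP, where *Olfr506* (0.27) and *Olfr20* (-0.17) lie near 0.

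*Olfr502*, 83.4% identical in protein to *Olfr506* and 85.7 kb from it, had 98, 193 and 100 reads at 100% SBT and 32, 25 and 8 in the controls. It rose by 2.06 on the log2 scale (SE 0.42, adjusted p = 0.00432, edgeR), beside the 4.77 of *Olfr506*. In 2,5-DMP *Olfr502* had 189, 148 and 159 reads against 13, 39 and 61 and rose by 2.04 on the log2 scale (SE 0.32, adjusted p = 0.000826, edgeR), and *Olfr506* had 47, 73 and 94 reads against 21, 59 and 75, with a log2 fold change of 0.27 (SE 0.28). Thus the OR nearest in sequence to *Olfr506* was called for both odorants, and *Olfr506* was not called for 2,5-DMP.

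*Olfr507*, 6.5 kb from *Olfr506* and its next closest relative at 82.9% identity, had 7, 10 and 1 reads at 100% SBT and 0, 2 and 2 in the controls, too few for a change to be detectable (log2 fold change 1.41, SE 1.35). *Olfr504*, the nearest OR on the other side at 45.0 kb, had 0 reads in the 9 libraries of 1% and 100% SBT and their controls.

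The closest relative of *Olfr20*, *Olfr376*, was called at 1% and at 100% SBT. It is 90.3% identical in protein, lies 15.3 kb away and had 1067, 967 and 618 reads at 100% SBT and 104, 191 and 47 in the controls (log2 fold change 2.54, SE 0.31, adjusted p = 0.000141, edgeR). At 1% SBT it had 278, 727 and 488 reads, all 3 shares above the controls, as in 3.74% of the 1043 ORs tested. Its log2 fold change of 1.87 (SE 0.39) stood beside the 1.86 (SE 0.61) of *Olfr20*. It passed there (adjusted p = 0.0368, edgeR), and not with library totals (adjusted p = 0.0558) nor when any 1 of the 6 libraries was left out. In 2,5-DMP it had 1038, 1020 and 620 reads against 148, 254 and 199 and rose by 1.98 on the log2 scale (SE 0.32, adjusted p = 0.000995, edgeR). In the same libraries the share of *Olfr20* was 0.0509% ± 0.00368 against 0.0562% ± 0.00125 (SD, n = 3), no higher than in the controls.

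A further pair of relatives of *Olfr20* was called at 100% SBT. *Olfr390*, 79.9% identical, had 429, 639 and 244 reads at 100% SBT against 56, 116 and 33 in the controls (log2 fold change 2.18, SE 0.32, adjusted p = 0.000522, edgeR), and its log2 fold change at 1% SBT was -0.02 (SE 0.42). *Olfr1*, 82.5% identical and 37.1 kb away, had 187, 440 and 127 reads against 75, 101 and 41 (log2 fold change 1.20, SE 0.34, adjusted p = 0.0355, edgeR). The call of *Olfr1* was lost with library totals and in 5 of 6 fits that each left out 1 library. *Olfr378* and *Olfr380*, further along the cluster, had log2 fold changes of 1.00 (SE 0.53) and 1.28 (SE 0.47) that did not pass (adjusted p = 0.119 for *Olfr380*, edgeR, which passed with the replicate block at 0.0453 and in the fit of all 51 libraries at 0.0119).

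**Figure D4:**
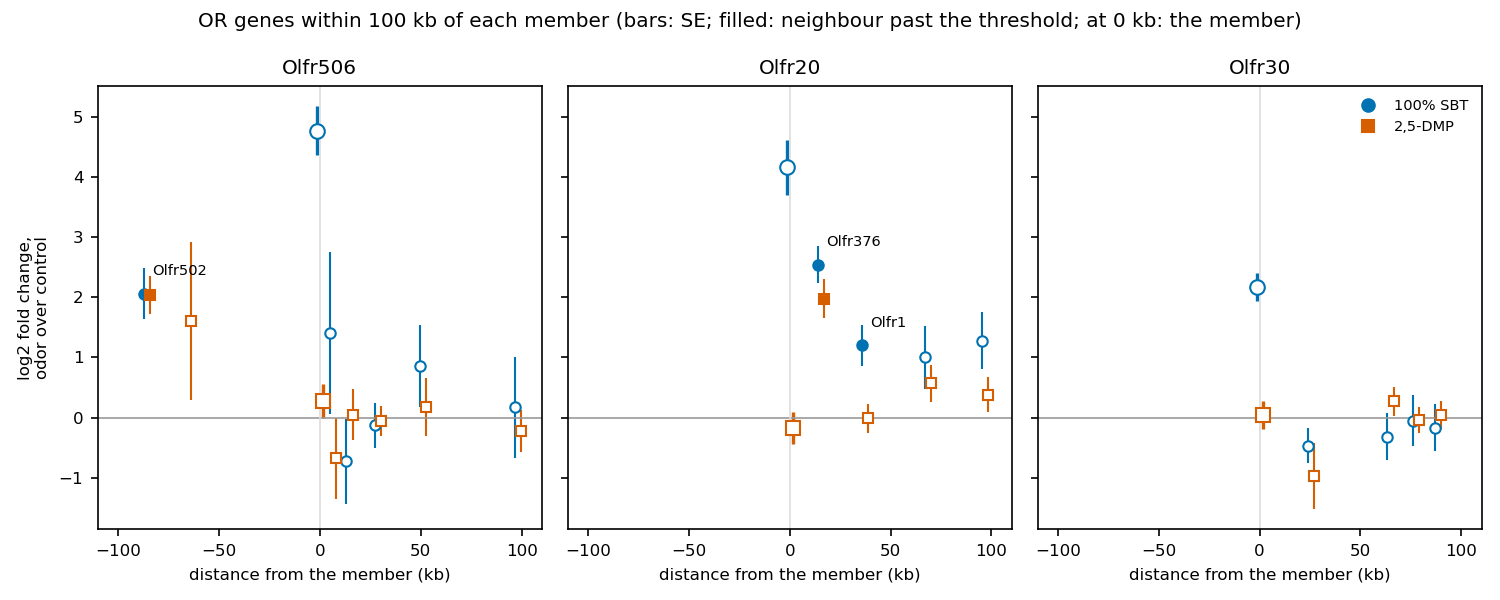
Log2 fold change with SE of the ORs within 100 kb of each receptor at 100% SBT (blue circles) and 2,5-DMP (orange squares), against distance in kb, with the receptor itself at 0 kb as the larger open symbols and filled symbols for neighbours that passed. Symbols are shifted 1.5 kb to either side of the true position by exposure. *Olfr502* and *Olfr376* are filled for both exposures, *Olfr1* for 100% SBT, and no neighbour of *Olfr30* is filled.

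No neighbour of *Olfr30* was called in any of the 10 comparisons by edgeR's quasi-likelihood test (8 of 40 tests had an unadjusted p under 0.05). The same 4 genes were tested in each comparison. The 8 were 3 of 4 for 10 mM MTMT, 3 of 4 for CPD, and 1 of 4 each for 1% SBT and 100 µM MTMT. Over all ORs such a p was found for 69 of 1054, 40 of 1050, 53 of 1043 and 44 of 1068 in these comparisons. *Olfr332*, the nearest at 25.7 kb, had 123, 239 and 128 reads at 100% SBT against 161, 217 and 94 (log2 fold change -0.47, SE 0.29), and the other tested neighbours, *Olfr330*, *Olfr329* and *Olfr328*, had log2 fold changes of -0.32, -0.05 and -0.17. In 10 mM MTMT these 3 were high in exposed replicates 2 and 3 and near the controls in replicate 1. *Olfr330* had 90, 1085 and 832 reads against 76, 64 and 58 (log2 fold change 3.15, SE 0.75, adjusted p = 0.449, edgeR), and *Olfr329* and *Olfr328* had log2 fold changes of 2.90 (SE 0.89) and 2.46 (SE 0.73). *Olfr330* and *Olfr328* passed there with DESeq2 (adjusted p = 0.00028 and 0.00805), *Olfr330* with the likelihood ratio test (0.012), and all 3 in the fit of all 51 libraries and when exposed replicate 1 was left out (adjusted p at most 0.00561). In CPD *Olfr330* had 57, 2554 and 232 reads against 65, 94 and 82 (log2 fold change 2.69, SE 0.89, adjusted p = 0.993, edgeR) and passed in the fit of all 51 libraries (adjusted p = 0.0346). *Olfr331* had 0 reads in all libraries of the 3 SBT doses and their controls. On the other side of *Olfr30* the next OR, *Olfr1371*, lies 6240.1 kb away.

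The closest relatives of *Olfr30* are more distant in sequence than those of the other 2 receptors. *Olfr1395*, 57.7% identical, had 677, 922 and 435 reads at 100% SBT against 182, 219 and 122 and rose by 1.39 on the log2 scale (SE 0.25, adjusted p = 0.00168, edgeR). In 100 µM MTMT its reads were 911, 1509 and 546 against 157, 484 and 439, with a log2 fold change of 1.43 (SE 0.32) that did not pass in edgeR's quasi-likelihood test (adjusted p = 0.0693) and did with DESeq2, the likelihood ratio test, library totals, ORs of at least 1 read, the replicate block and without exposed replicate 3 (adjusted p from 0.000998 to 0.0326), and in CPD 1 of its 3 libraries held 2885 reads where the others held 315 and 333. *Olfr56*, 56.8% identical, was called for 100 µM MTMT, with 395, 431 and 390 reads against 81, 253 and 176 (log2 fold change 1.21, SE 0.23, adjusted p = 0.0172, edgeR). That call was lost in the fit of all 51 libraries (adjusted p = 0.998) and in 3 of 6 fits with 1 library left out. *Olfr30* had 0.304%, 0.346% and 0.389% in 100 µM MTMT, with a log2 fold change of -0.29 (SE 0.25). No relative or neighbour was called by edgeR's quasi-likelihood test for 0.01% SBT, farnesene, DHB, 10 mM MTMT, CPD or β-caryophyllene (13 of 136 tests had an unadjusted p under 0.05). In that order they were 1 of 24, 1 of 23, 1 of 23, 5 of 22, 5 of 22 and 0 of 22. Over all ORs they were 29 of 1072, 69 of 1071, 38 of 1064, 69 of 1054, 40 of 1050 and 51 of 1048. For 10 mM MTMT, *Olfr1395* had 182, 1940 and 1623 reads against 232, 409 and 208 (log2 fold change 2.01, SE 0.71, adjusted p = 0.479, edgeR), and *Olfr31*, another relative of *Olfr30*, had a log2 fold change of 2.22 (SE 0.70, adjusted p = 0.449, edgeR). Both passed with DESeq2 (adjusted p = 0.0437 and 0.0198), in the fit of all 51 libraries (0.01 and 0.00433) and without exposed replicate 1 (0.00248 and 0.000486).

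The ORs whose pattern over the 17 group means was most like that of each receptor lie on chromosomes 2, 17 and 19, and none is a relative or neighbour described above. By Pearson correlation of log2(mean share per 100000 OR reads + 5) among 939 ORs, they were *Olfr1474* (r = 0.933), *Olfr136* (r = 0.914) and *Olfr107* (r = 0.914) for *Olfr506*. For *Olfr20* they were *Olfr96* (r = 0.950), *Olfr1459* (r = 0.932) and *Olfr1154* (r = 0.923), and for *Olfr30* *Olfr1054* (r = 0.933), *Olfr1087* (r = 0.923) and *Olfr96* (r = 0.896). Each of the 17 points is a mean of 3 libraries, and 1 of them, 100% SBT, is far from the rest for each receptor.

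*Olfr96*, on chromosome 17 and named for both *Olfr20* and *Olfr30*, took 1.15% to 1.54% of OR reads at 100% SBT and 0.132% to 0.390% in the other 48 libraries. *Olfr1474*, on chromosome 19, took 0.0591% to 0.140% at 100% SBT and at most 0.0311% elsewhere. The receptors' own correlations with each other were 0.834 (*Olfr506* and *Olfr20*), 0.824 (*Olfr506* and *Olfr30*) and 0.833 (*Olfr20* and *Olfr30*). Without the 100% SBT group they were -0.118, -0.264 and 0.067, so that over the other 16 groups the 3 receptors did not vary together, and none of the ORs named above stayed among the 3 most alike. Over the 51 single libraries, which again include those of 100% SBT that chose the genes, the correlations were 0.614, 0.707 and 0.652. There none of the 3 ORs named for *Olfr506* stayed among its 3 most alike (*Olfr57*, *Olfr1104* and *Olfr1160* took their place), 1 stayed for *Olfr20* (*Olfr96*) and 2 for *Olfr30* (*Olfr1087* and *Olfr96*).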

How the data were processed

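The authors used STAR for alignment (GRCm38.p6, GENCODE M25) and RSEM to estimate reads per gene. The expected counts they deposited are per OR gene and library, not normalized, and were rounded to whole numbers here. Their own comparisons (log2 fold change, logCPM, LR, p-value and FDR) were not used, nor was the table of a further odorant, in which 6 per-sample columns match no labelled sample. Doses are those of the study's description.

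Counts were compared with edgeR 4.0.16 (R 4.3.3): TMM factors over ORs, at least 10 reads over the 6 libraries, glmQLFit and glmQLFTest, Benjamini-Hochberg adjustment over all ORs tested and a threshold of 0.05. The code was tested on simulated data. SE is the log2 fold change divided by the square root of F. Exact permutation tests used log2(share per 100000 OR reads + 5). DESeq2 1.42.0 was an alternative. Wilson intervals (95%) cover counting error only.

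Genes named are the 3 receptors, their nearest OR on either side, their 2 relatives of highest identity, any relative or neighbour called, and the 3 ORs most alike in pattern. The receptors and these lists were chosen with earlier results of these data known. Positions and identities were computed from GENCODE M21, which held all 1117 OR identifiers. Of 51 pairs of libraries within groups, none agreed within counting noise (5.22 to 28.0 chi-squared per degree of freedom). P-values measure the spread between these mice. Libraries of equal replicate number deviated together (correlation over 0.1 in every pair) for 1% and 100% SBT, 2,5-DMP, DHB, CPD and β-caryophyllene, and not in every pair for the other comparisons.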

Additional observations from a re-analysis of the deposited data

How the results depend on the processing

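The 3 receptors' log2 fold changes at 100% SBT kept their direction in 36 refits, between 4.38 and 5.27 for *Olfr506*, 3.76 and 4.74 for *Olfr20* and 1.78 and 2.25 for *Olfr30*, where 1.78 came from library totals. Elsewhere 1 of 375 refits of the receptors passed the threshold (*Olfr20* at 1% SBT, 1.89 in the fit of all 51 libraries), and 22 changed sign, counted on rounded values. *Olfr506* for DHB, at -0.0 in the main fit after rounding, could not be counted and ran from -0.25 to 0.14 with 1 library left out. Beside the refits that left out 1 library, the sign changes counted were *Olfr30* for 10 mM MTMT with library totals (-0.24) and *Olfr20* for 10 mM MTMT with the replicate block (0.01). The replicate block changed no call of a receptor. The cause of these shifts was not tested. The shallow controls of 1% and 100% SBT, with 7 to 38 reads of *Olfr506* or *Olfr20*, limit what the lower dose can show.

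Leaving out 1 library at a time, the log2 fold change ran at 0.01% SBT from -0.08 to 0.33 for *Olfr506*, from -0.05 to 0.54 for *Olfr20* and from -0.03 to 0.28 for *Olfr30*. At 1% SBT it ran from -0.05 to 0.79 for *Olfr506* and from -0.27 to 0.05 for *Olfr30*, and at 100% SBT from 3.95 to 4.74 for *Olfr20*. For 10 mM MTMT it ran from -0.38 to 0.39 for *Olfr20* and from -0.08 to 0.28 for *Olfr30*, for farnesene from -0.09 to 0.01 for *Olfr20* and from -0.15 to 0.21 for *Olfr30*, for 2,5-DMP from -0.08 to 0.10 for *Olfr30*, for DHB from -0.37 to 0.14 for *Olfr20* and for CPD from -0.11 to 0.01 for *Olfr30*. The difference of the changes between 1% and 0.01% SBT ran from -0.18 to 0.73 for *Olfr506*.

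The number of ORs called ran, with 1 library left out, from 3 to 5 for 0.01% SBT, 0 to 8 for 1% SBT (0 without replicate 1 of the exposed group), 1 to 5 for 100 µM MTMT, 0 to 38 for 10 mM MTMT (38 without replicate 1 of the exposed group), 8 to 28 for farnesene (8 without exposed replicate 2), 0 to 1 for CPD and 0 to 1 for the difference between 1% and 0.01% SBT. Of the relatives and neighbours, 0 were then called for 1% SBT, 0 to 2 for 100 µM MTMT and 0 to 5 for 10 mM MTMT.

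With DESeq2, 15 ORs were called for 10 mM MTMT, 5 for 100 µM MTMT, 1 for CPD and 1 for the difference between 1% and 0.01% SBT, and of the relatives and neighbours 2 for 100 µM and 4 for 10 mM MTMT. With library totals or with ORs of at least 1 read, 5 ORs and 2 relatives or neighbours were called for 100 µM MTMT, and with library totals 0 relatives or neighbours for 1% SBT. With the likelihood ratio test 15 ORs were called for 1% SBT, 7 for 100 µM and 5 for 10 mM MTMT, 15 for 2,5-DMP, 1 for CPD and 1 for the dose difference, and of the relatives and neighbours 2 for 100 µM and 1 for 10 mM MTMT. In the fit of all 51 libraries 28 ORs were called for 1% SBT, 0 for 100 µM and 29 for 10 mM MTMT, 12 for farnesene and 1 for CPD, and of the relatives and neighbours 0 for 100 µM MTMT, 5 for 10 mM MTMT and 1 for CPD. With the replicate block 6 ORs were called for 100 µM MTMT, 17 for 2,5-DMP and, of the relatives and neighbours, 2 for 100 µM MTMT. A pseudocount of 1 changed the direction of none of the 27 exact tests. Of the 3 ORs most like each receptor, all 3 were kept for each with a pseudocount of 1, none without the 100% SBT group, and over the 51 libraries 0 for *Olfr506*, 1 for *Olfr20* and 2 for *Olfr30*.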
